A study of Mus musculus with 8 samples.

Results

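The extracellular matrix and integrin genes described here are 59 mouse genes chosen by name: 25 collagen genes, 8 laminin genes, 14 integrin genes, 9 genes of the ADAMTS family and the 3 glycoprotein genes Fn1, Fbn1 and Fbn2. The choice was made with earlier results of these data known. Comparisons with genes of matched length below therefore describe these genes and test nothing. The members are 59 of the 21774 protein-coding genes of the annotation used. Their values are the regions of differential CMS-IP signal that fall in them: 69 regions, of the 12594 in the authors' 2 deposited lists, have their midpoint in a member's span extended by 1 kb at both ends. CMS-IP recovers DNA that carries 5-hydroxymethylcytosine (5hmC), the oxidised form of 5-methylcytosine made by TET enzymes, after bisulfite turns it into an adduct that an antibody binds.

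The study deleted Ogt, which encodes O-GlcNAc transferase and lies on the X chromosome, in mouse embryonic stem cells (mESC). All samples came from Ogt fl/fl mESC grown on mitomycin C-treated embryonic fibroblasts with LIF and serum replacement. Ogt iKO cells had 4-OHT (4-hydroxytamoxifen) for 6 days and were sorted for YFP, and control cells had no 4-OHT, so deletion, the drug and the YFP sort cannot be told apart. Both were sorted as viable cells, with antibodies to CD90.2 and CD326 used to separate stem cells from feeder cells. The labels' protocol names CD90.2 as the marker of mESC and CD326 as the one that excludes feeder fibroblasts, whereas CD326 (EpCAM) is usually found on mESC and CD90.2 on fibroblasts; which fraction was kept could not be checked here, and fibroblasts are known to express many matrix genes. Each of the 4 groups (CMS-IP and input, from each kind of cell) has 2 samples, and nothing says whether these came from separate cultures. The lists hold a chromosome, a start and an end for each region that was higher or lower in Ogt iKO, and no value per sample. Read depth, fold changes and the spread between replicates are therefore unknown, no test between groups was possible, and the identity of the cells could not be checked against markers. Intervals given below are 95% intervals that cover counting error over regions, which are not replicates.

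Collagens are triple-helical proteins that form fibrils, networks or membrane-bound stalks outside the cell. Laminins are trimers of an alpha, a beta and a gamma chain and, with type IV collagen, build basement membranes, the sheets on which epithelia and early embryonic cells rest. Integrins are alpha and beta receptor pairs that bind these proteins and link them to the cytoskeleton, and ADAMTS enzymes trim matrix proteins in the extracellular space. In embryonic stem cells, laminin and fibronectin substrates and their integrin receptors are known for their part in attachment and self-renewal. In gene bodies, 5hmC is known to accompany transcribed and primed genes, and at regulatory sequence it is an intermediate of demethylation.

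The only gene start among the members that a region covered was that of Lama2, which encodes the laminin alpha chain of muscle and peripheral nerve. Promoter sequences were found in the RefSeq table (GRCm38.p6, the assembly of mm10) for 42 of the 59 members, as 44 windows from 250 bases before to 50 bases after a transcript start. A lower region at chr10:27616407-27617276 covered the whole Lama2 window, and no other member window was overlapped by a region of either list. For comparison, 0.174% of the 21263 windows of protein-coding genes were overlapped by a lower region and 0.198% by a higher region. Shown are the 250 bases before the transcript start of Lama2, Lamb1, Col25a1 and Col4a2. In Lamb1 and Col25a1 the first lower region lay just inside the gene. Col4a2 starts back to back with Col4a1, and regions of opposite direction lie in the 2 genes. The transcript start is not always the end of the gene span, from which distances are given below. It lies inside the span in Lama2 (27616942, span end 27617191), Lamb1 (31265293, span start 31265146) and Col25a1 (130180845, span start 130180358). The bases shown for these genes thus lie partly or wholly inside their spans. The transcript start of Itga9 lies much farther inside its span (118711692, span start 118606709). In Col18a1 a further transcript start, at 77113705, also lies far inside the span (end 77166530). CG dinucleotides, the usual site of 5mC and 5hmC, are in capitals (searched as CG, which reads the same on both strands).
Lama2, chr10:27616943-27617192, minus strand: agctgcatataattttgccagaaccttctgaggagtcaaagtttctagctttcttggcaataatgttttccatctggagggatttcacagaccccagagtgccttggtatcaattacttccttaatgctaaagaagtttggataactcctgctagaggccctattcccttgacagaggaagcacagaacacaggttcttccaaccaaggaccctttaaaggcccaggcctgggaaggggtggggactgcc
Lamb1, chr12:31265043-31265292, plus strand: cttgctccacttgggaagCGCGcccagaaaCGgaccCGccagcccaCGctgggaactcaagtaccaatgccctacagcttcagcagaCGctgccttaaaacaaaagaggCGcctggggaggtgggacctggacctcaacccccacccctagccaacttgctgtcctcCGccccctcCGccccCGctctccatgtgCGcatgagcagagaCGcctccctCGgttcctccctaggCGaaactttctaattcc
Col25a1, chr3:130180595-130180844, plus strand: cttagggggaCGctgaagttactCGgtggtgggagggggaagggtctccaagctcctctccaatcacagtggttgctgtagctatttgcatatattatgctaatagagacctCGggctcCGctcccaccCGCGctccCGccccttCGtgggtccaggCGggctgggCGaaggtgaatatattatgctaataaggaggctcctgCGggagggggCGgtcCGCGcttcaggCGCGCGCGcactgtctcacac
Col4a2, chr8:11312555-11312804, plus strand: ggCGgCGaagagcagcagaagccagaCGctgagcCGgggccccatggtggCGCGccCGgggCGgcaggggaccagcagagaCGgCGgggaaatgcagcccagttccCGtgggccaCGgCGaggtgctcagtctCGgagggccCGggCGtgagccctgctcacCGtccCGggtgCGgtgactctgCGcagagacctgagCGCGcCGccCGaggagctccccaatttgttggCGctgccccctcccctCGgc

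The CG content of these sequences differed. The 250 bases of Lama2 hold 0 CG dinucleotides, those of Lamb1 14, of Col25a1 18 and of Col4a2 26. The full Lama2 window of 300 bases holds 1. Member windows held a median of 16 (range 0 to 46, 44 windows), against 13 over all protein-coding windows, and CG was found in 97.7% of member windows and 95.4% of all windows. Only 2 member windows held 1 CG or fewer, those of Lama2 and of Col3a1, a fibrillar collagen gene with no region. Such windows made up 11.4% of all protein-coding windows. Among the 36 other protein-coding windows overlapped by a lower region, 1 held 1 CG or fewer and the median was 8.

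Of the 59 members, 32 held at least 1 region, 27 a higher region, 12 a lower region and 7 both. Over all protein-coding genes, 20.5% held a region, 15.3% a higher region, 8.51% a lower region and 3.34% both. Members are long, with a median of 130.5 kb, and long genes hold more regions, so each member was set against other protein-coding genes of its length. From the shares in 10 length bins, genes as long as the members would include 32.4 with a region, 26.5 with a higher region and 15.2 with a lower region. The 200 other genes closest in length to each member gave 32.3, 25.9 and 14.8, and 8.44 with both; of the 5752 genes among these closest sets, 44.3% held a region. The number of members with a region was therefore close to what length alone gives, and the number with a lower region was below it by about 3 genes. No test was made of these differences.

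**Figure D1:**
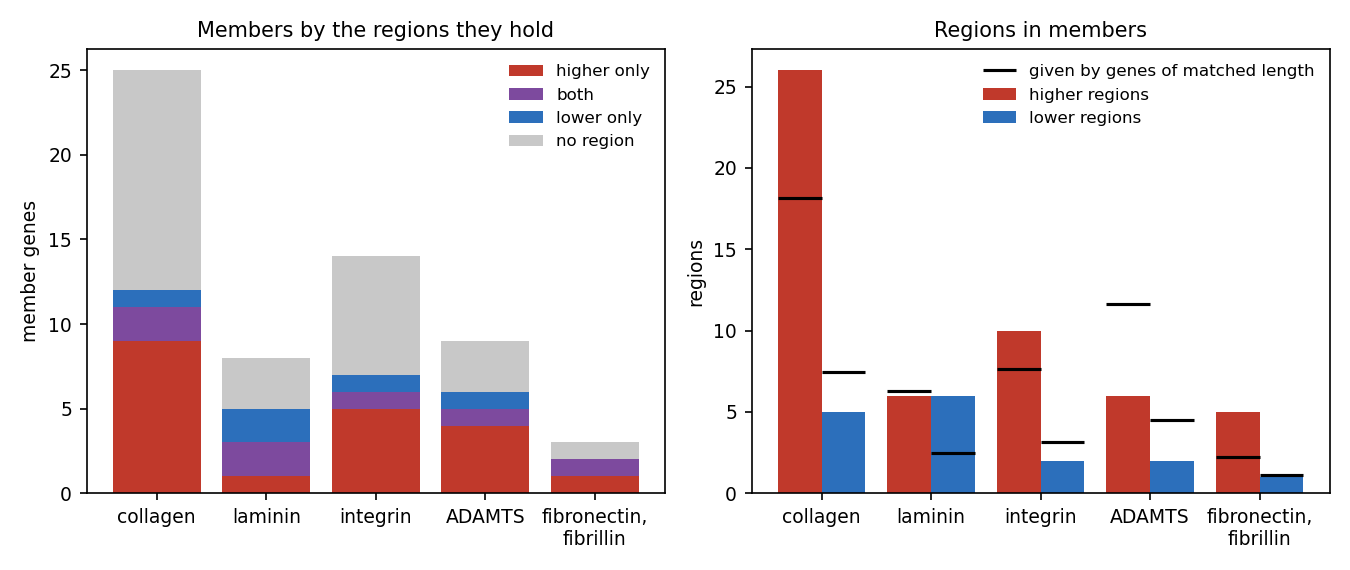
Left, number of member genes in each family by the regions they hold; right, number of higher (red) and lower (blue) regions in the members, with black lines at the number given by the 200 other protein-coding genes closest in length to each member. Collagens hold 26 higher and 5 lower regions, and laminins are the family with as many lower as higher regions, 6 and 6.

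In direction, 53 of the 69 member regions were higher in Ogt iKO and 16 were lower, a higher share of 76.8% (Wilson interval 65.6 to 85.2%). Regions in other protein-coding genes were higher in 69.5% (4812 of 6924), a share inside that interval. Collagen regions were higher in 83.9% (26 of 31, 67.4 to 92.9%), integrin regions in 83.3% (10 of 12, 55.2 to 95.3%) and ADAMTS regions in 75.0% (6 of 8, 40.9 to 92.9%). Laminin regions were evenly split, 6 higher and 6 lower (25.4 to 74.6%). The 3 glycoprotein genes held 5 higher and 1 lower region (83.3%, 43.7 to 97.0%). The intervals of the 5 families overlapped and each held the 69.5% of other genes. Overlap of intervals is not a test, and a difference in direction between families was not tested.

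Collagens, the family with the most members, held 31 of the 69 regions. Of the 25 collagen members, 12 held a region, against 13.2 given by genes of their length. Their 26 higher regions compare with 18.2 given by length (exact Poisson interval of the count 17.0 to 38.1), and their 5 lower regions with 7.43 (1.62 to 11.7). Without Col25a1, the remaining 24 collagens held 18 higher and 3 lower regions, against 16.4 and 6.74.

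Col25a1 encodes a transmembrane collagen best known from neurons and from amyloid plaques. Its span of 419.5 kb held 8 higher and 2 lower regions. The 200 other genes closest in length (354.6 to 495.9 kb) held a mean of 2.47 regions and at most 9, so 0 of them held as many as 10; 1 held 8 or more higher regions. The order along the gene began with a lower region of 280 bp at chr3:130181689-130181968, 1.47 kb from the start of the span. The first higher region followed 12.4 kb from the start, at chr3:130191663-130193801, and with 2139 bp it was the widest of the gene. Further higher regions lay 71.1, 144.2, 148, 176.5 and 226.9 kb from the start, among them one of 1721 bp at chr3:130327458-130329178. The second lower region, of 221 bp, lay at 338.4 kb, and higher regions of 206 and 1331 bp followed at 395.1 and 403.3 kb. Both lower regions of Col25a1 were thus narrow, and between 226.9 and 395.1 kb no higher region was listed.

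The other transmembrane collagens differed from it. Col13a1, which helps to anchor the neuromuscular junction, held 2 lower regions and 1 higher region in 141 kb, and 11 of the 200 genes closest in length held 2 or more lower regions. Its lower region of 1380 bp at chr10:61966704-61968083, 11.8 kb from the start, was the widest lower region of any member. A second lower region of 296 bp lay 50.6 kb from the start, where a long noncoding RNA gene, Gm30121, overlaps it, and a higher region of 375 bp followed at 94.3 kb. Col23a1 held 0 regions in 294.2 kb, although 76.5% of the 200 genes closest in length held at least 1.

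Among fibril-forming collagens, regions were found in 2 of 9 genes, against 3.85 given by length, and all 6 were higher. Col24a1, a minor fibrillar collagen of bone and cornea, held 5 of them in 259.5 kb, and 3 of the 200 genes closest in length held as many higher regions. The first lay 143.8 kb from the start and the last 256.4 kb, so that all 5 were in the distal part of the gene; the widest, of 1258 bp, lay at chr3:145487317-145488574. Col11a1, which nucleates cartilage fibrils, held 1 higher region of 593 bp, 188.7 kb from its start and 1.54 kb from its other end. The genes for the fibrillar chains of types I, II, III and V, Col1a1, Col1a2, Col2a1, Col3a1, Col5a1 and Col5a2, held 0 regions, as did Col27a1. The first 4 are short (16.8 to 38.2 kb), and 11 to 25% of genes of their lengths held a region, whereas 62% did for Col5a1 and 57% for Col5a2.

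The network-forming collagens include the basement membrane chains, whose genes lie in back-to-back pairs. The spans of Col4a1 and Col4a2, the chains of nearly all basement membranes, overlap by 85 bp at their starts. Col4a2 held 2 higher regions, of which that at chr8:11367857-11372275 was the widest region of any member with 4419 bp, 57.3 kb from the start. The second, of 440 bp, lay at 108.3 kb. Col4a1 held 1 lower region of 540 bp at chr8:11260206-11260745, 52.4 kb from its own start. The shared start, printed above for Col4a2 and rich in CG, held no region, and 107111 bp lay between the lower region of Col4a1 and the nearest higher region of Col4a2. Of the pair Col4a3 and Col4a4, chains of the kidney glomerulus and cochlea, Col4a4 held 1 higher region of 1231 bp and Col4a3 held 0. Col8a1, a chain of vessel walls and the cornea, held 1 higher region of 780 bp.

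The remaining collagens held higher regions or none. Among fibril-associated collagens, Col19a1 held 2 higher regions of 1331 and 730 bp with 5494 bp between them, 257.7 and 251.2 kb from the start in that order. Col14a1 held 2 narrow ones of 205 and 200 bp, and Col12a1 and Col22a1 held 0. Col22a1, at 355.2 kb, was the longest member without a region, where 75% of genes of its length held one. The multiplexins Col15a1 and Col18a1, basement membrane collagens whose C-terminal fragments include endostatin, held 2 and 1 higher regions of 387 to 779 bp. Col6a1 and Col7a1, chains of beaded filaments and of anchoring fibrils, held 0 regions; 11.5% and 23% of genes of their lengths held one.

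**Figure D2:**
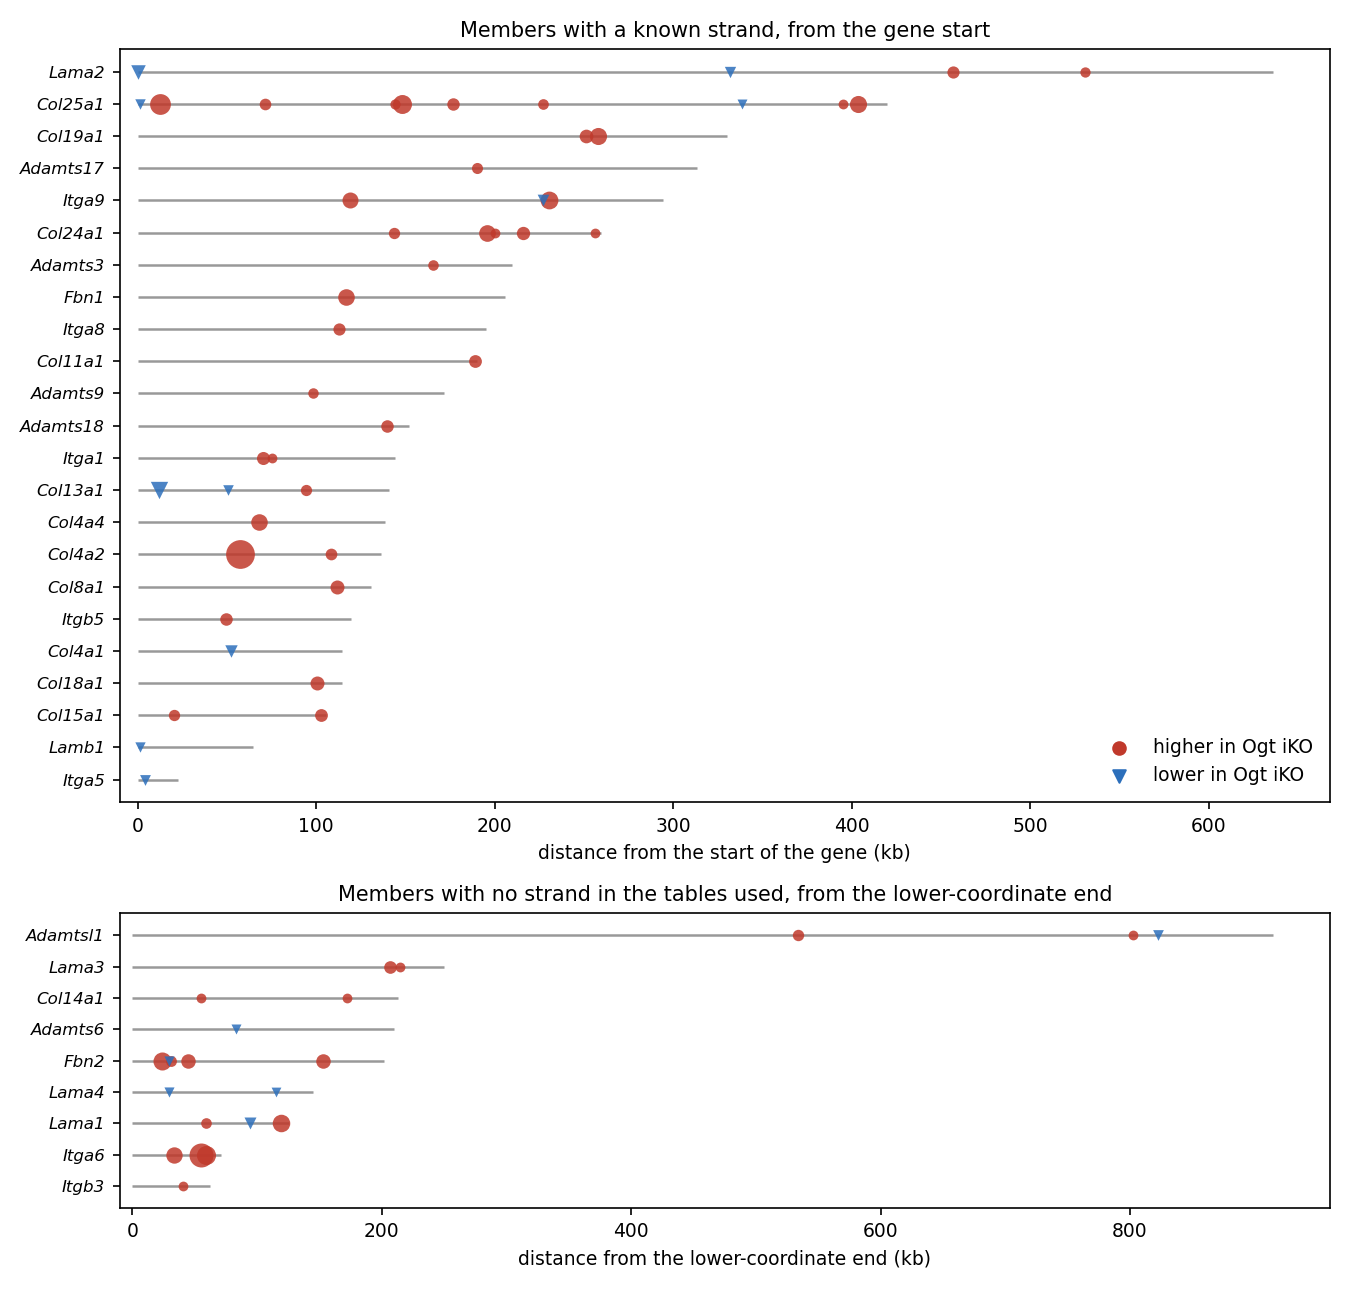
Positions of the 69 regions (horizontal axis, kb) along each of the 32 member genes that hold one (grey lines, one row per gene); red circles are higher and blue triangles lower in Ogt iKO, and symbols grow with region width. In the upper panel distances run from the gene start, and the blue triangles of Lama2, Col25a1, Lamb1 and Itga5 lie within 5 kb of it, where no red circle lies.

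Laminin genes held 12 regions, 6 in each direction. Lower regions were found in 4 of the 8 genes, against 1.98 given by length, and their 6 lower regions compare with 2.48 given by length (exact Poisson interval of the count 2.20 to 13.1), while their 6 higher regions were close to the 6.31 given by length. The interval of the lower count holds the number given by length. The lower region over the start of Lama2 was 870 bp wide, had its midpoint 0.35 kb inside the span and reached past its end. It was the only one of the 69 member regions within 1 kb of an end of its gene. Lama2 held a second lower region of 387 bp, 331.6 kb from the start, and 2 higher regions of 507 and 262 bp farther on, at 456.5 and 530.3 kb. All lower regions of this gene of 635.9 kb thus lay upstream of both higher ones.

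Lamb1, the beta chain of the laminins of the early embryo, held 1 lower region of 265 bp at chr12:31266447-31266711, 1.43 kb from the start. Lama1, the alpha chain of the first embryonic basement membranes, held 2 higher regions of 304 and 1420 bp and 1 lower region of 478 bp between them. Lama4, a chain of vessel walls, held 2 lower regions of 241 and 200 bp and no higher region, and 8 of the 200 genes closest in length held 2 or more lower regions. Lama3, a chain of skin basement membrane, held 2 higher regions of 574 and 205 bp. Lama5, Lamb2 and Lamc1 held 0 regions. A lower region of 1326 bp upstream of Lamb2, at chr9:108478054-108479379, was just outside the rule, with its midpoint 1.13 kb before the span.

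Other members had regions just outside the 1 kb limit too. A higher region lay 1.78 kb beyond the far end of Itgav, a lower one 3.45 kb beyond Lama3, and higher ones 3.41 kb beyond an end of Itga6 and 4.40 kb beyond the far end of Adamts12. On the inner side of the limit, the regions nearest to a gene end were the lower one of Lama2 and then the lower ones of Lamb1 and Col25a1 and the higher one of Col11a1, 1.43 to 1.54 kb inside their genes.

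Among the integrins, 7 of 14 genes held a region, against 6.57 given by length, with 10 higher and 2 lower regions. Itga6, the laminin receptor chain used as a surface marker of many stem cells, stood at the dense end: its span of 71.5 kb held 3 higher regions and no lower one. The 200 genes closest in length held a mean of 0.565 regions, and 3 of them held 3 or more. Its regions were also wide, with 1192 bp at chr2:71819909-71821100, 2965 bp at chr2:71840781-71843745 and 1742 bp at chr2:71844891-71846632. The last 2 lay 1145 bp apart. Itga3, the other laminin-binding chain listed, held 0 regions.

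Itga9, a receptor chain for tenascin and other ligands, held 2 higher regions of 1126 and 1475 bp and 1 lower region of 436 bp. The lower region ended 2474 bp before the second higher region, which also overlaps a pseudogene, Gm10157. Itga1, a collagen receptor chain, held 2 higher regions of 204 and 631 bp with 4597 bp between them. Itga8 (509 bp), Itgb3 (200 bp) and Itgb5 (555 bp) held 1 higher region each; they encode chains of receptors that recognise the RGD motif. Itga5, the fibronectin receptor chain, held 1 lower region of 323 bp at chr15:103362353-103362675, 4.28 kb from the start of its 22.5 kb span. Only 5 of the 200 genes closest in length held a lower region. Itgb1, the beta chain shared by most of these receptors, and Itga2, Itga4, Itga11, Itgav and Itgb8 held 0 regions.

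ADAMTS genes held few regions for their length. In 6 of the 9 genes there was at least 1, against 6.48 given by length, but these added up to 6 higher and 2 lower regions where genes of their length gave 11.7 and 4.50. The 8 regions had an exact Poisson interval of 3.45 to 15.8, which ends close to the 16.1 given by length. That interval treats regions as independent and leaves out the spread between genes, so it may be too narrow. No test was made. Adamtsl1, which lacks the protease domain and at 914.5 kb is the longest member, held 2 higher regions of 397 and 200 bp and 1 lower region of 313 bp, against a mean of 3.28 regions in the genes closest in length. Adamts3, which removes the N-propeptide of fibrillar procollagens, held 1 higher region of 296 bp. Adamts9, Adamts17 and Adamts18 held 1 higher region each, of 283, 358 and 554 bp, and Adamts6 held 1 lower region of 226 bp. Adamts2, Adamts12 and Adamtsl3 held 0. No region in the 9 listed ADAMTS genes reached 1 kb, and the widest was that of Adamts18.

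Of the glycoprotein genes, Fbn2 held the most regions. It encodes the fibrillin of embryonic microfibrils and held 4 higher and 1 lower region in 201.9 kb; 7 of the 200 genes closest in length held as many as 5 regions. Its lower region of 247 bp at chr18:58038253-58038499 lay between higher regions of 1524 and 330 bp, with gaps of 5046 and 1311 bp. The gap of 1311 bp was the smallest between regions of opposite direction in any member. Higher regions of 859 and 863 bp lay at higher coordinates; the strand of Fbn2 was not known here. Fbn1, the fibrillin altered in Marfan syndrome, held 1 higher region of 1238 bp at chr2:125389177-125390414. Fn1, the fibronectin gene, held 0 regions in 67.8 kb, where 42% of genes of its length held one.

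**Figure D3:**
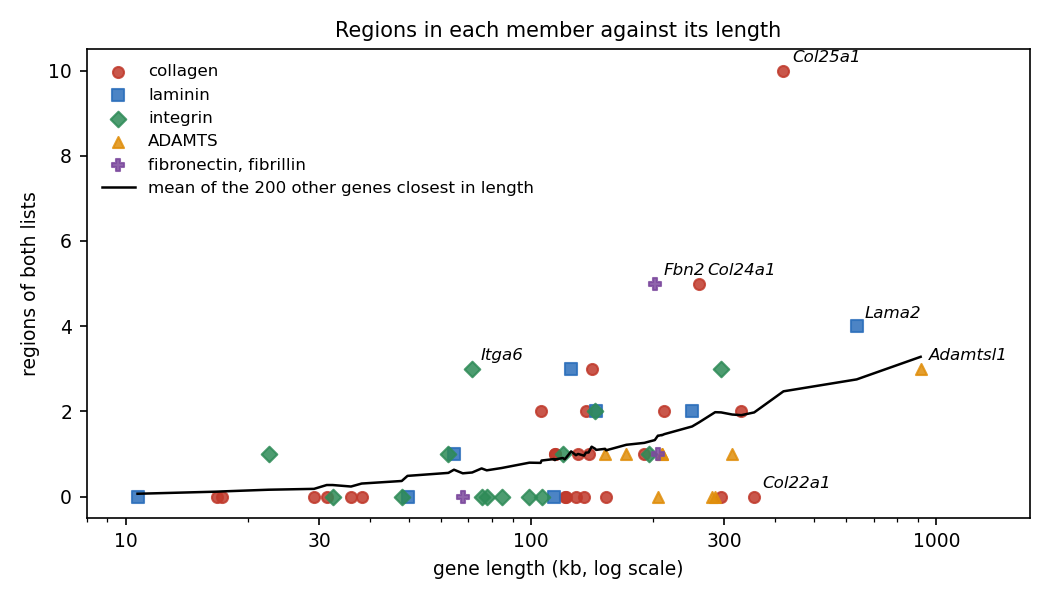
Number of regions of both lists in each of the 59 members (vertical axis) against gene length (kb, log scale), by family; the black line is the mean of the 200 other protein-coding genes closest in length to each member. Col25a1 with 10 regions, Col24a1 and Fbn2 with 5 and Itga6 with 3 lie above the line, and Col22a1 lies at 0.

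Position along the gene was compared for the 47 regions in members whose strand was known. None of the 37 higher regions lay within 5 kb of the gene start (Wilson interval 0 to 9.41%), and the nearest was 12.4 kb away. Of the 10 lower regions, 4 did, those of Lama2, Lamb1, Col25a1 and Itga5 (40.0%, 16.8 to 68.7%). Median distances, from the end of the span, were 143.8 kb for higher and 31.2 kb for lower regions. Distances in Itga9 would be much shorter from its transcript start, which lies far inside the span. The 37 higher regions all lay in members of 100 kb or more, where the lower median was 51.5 kb (8 regions). Medians in other genes with a known strand were 44.0 and 30.9 kb, and 114.6 and 103.7 kb in those of 100 kb or more. In other protein-coding genes with a known strand, 8.54% of 3806 higher and 20.3% of 1680 lower regions lay within 5 kb of the start. Among those of 100 kb or more the shares were 2.31% and 5.96%; in members of that length they were 0 of 37 and 2 of 8. The medians of higher and lower regions lay closer together in other genes than in the members. A larger share of lower than of higher regions lay within 5 kb of the start in the members as in other genes, on few regions. The Lama2 sequence printed above lies under such a lower region. Those of Lamb1 and Col25a1 lie before one and do not overlap it, while the shared Col4a1 and Col4a2 start has none nearby.

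Some higher regions of the members lay in pairs. Another higher region lay within 10 kb of 16 of the 53 (30.2%, Wilson interval 19.5 to 43.5%), forming 8 pairs in 7 genes: Col25a1 with 2 pairs, and Col24a1, Col19a1, Lama3, Itga1, Itga6 and Fbn2 with 1 each. The regions of a pair were 1145 to 7439 bp apart. Since each pair counts for both of its regions, the interval is too narrow. Members of every length were counted, among them Itga6 at 71.5 kb, so the sets compared differ in length. In other protein-coding genes of 100 kb or more, 11.3% of 2539 higher regions had such a neighbour. None of the 16 lower regions of the members had a lower region within 10 kb (0 to 19.4%), against 3.46% in those other genes. These windows were chosen with the positions known, and no test was made.

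Higher member regions were wider than lower ones. The median was 554 bp for the 53 higher regions (200 to 4419 bp) and 304.5 bp for the 16 lower regions (200 to 1380 bp). Regions in other protein-coding genes had medians of 583 and 322.5 bp. A width of 1000 bp or more was reached by 15 higher regions (28.3%, against 26.8% in other genes) and by 1 lower region, that of Col13a1 (6.25% against 11.4%). The 5 widest member regions were all higher and lay in Col4a2, Itga6 and Col25a1. By family, the median of higher regions was 567.5 bp in collagens, 405.5 bp in laminins, 878.5 bp in integrins and 327 bp in ADAMTS genes, with wide overlap between families.

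**Figure D4:**
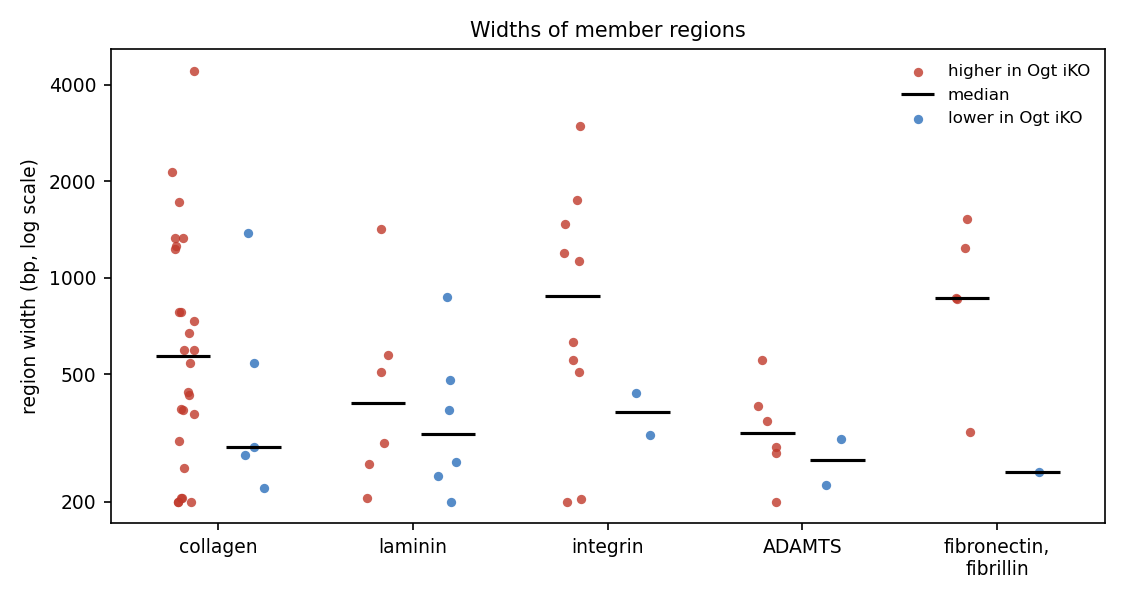
Width of each member region (bp, log scale) by family, with higher regions in red, lower regions in blue and black bars at the medians. Ranges overlap between directions in the collagen, laminin, integrin and ADAMTS genes; the widest are the higher regions of Col4a2 (4419 bp) and Itga6 (2965 bp).

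The rest of each family and the wider pathway were counted in the same way. Of 50 further collagen, laminin, integrin and ADAMTS genes found by symbol, 15 held a region, against 16.2 given by genes of their length, with 12 higher and 7 lower regions. By family, higher and lower regions numbered 6 and 3 in collagens, 1 and 0 in laminins, 1 and 3 in integrins and 4 and 1 in ADAMTS genes. The further integrins thus held mostly lower regions, unlike the listed ones. Over all integrin genes by symbol, 11 regions were higher and 5 lower, a higher share of 68.8%. The 83.3% of the listed integrins therefore depends on which genes were listed. The 50 further genes include Col6a6 with 2 higher regions, Col6a4 and Itgb6 with 1 of each direction and Adamts20, an ADAMTS gene outside the members, with 2 higher regions of 1928 and 2328 bp. In 5 lists of proteins that build, cut or read the matrix, 19 of 68 genes held a region, against 22.5 given by length. They held 21 higher and 19 lower regions, a smaller higher share than the 69.5% of regions in other protein-coding genes. For these lists no number by direction was drawn from genes of matched length, and the difference was not tested. Integrin adaptors and focal adhesion genes held 8 higher and 9 lower regions in 7 of 16 genes. Among them, Tln2, a talin that couples integrin tails to actin, held 6 higher and 2 lower regions in 417 kb. Ptk2, which encodes focal adhesion kinase, held 3 lower regions of 268 to 385 bp, and Lims1, the adaptor PINCH, held 2 lower regions. No higher region was found in Ptk2 or Lims1.

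In the other lists, basement membrane linkers held a region in 3 of 7 genes, with 2 higher and 4 lower regions, of which Egflam, the retinal matrix protein pikachurin, held 2 of each. Elastic fibre and matricellular genes held one in 5 of 18, with 7 higher and 6 lower regions. These included Tnr with 2 of each, Ltbp1 and Fbln1 with 2 higher and 1 lower, and Ltbp2 with 2 lower regions. Collagen processing enzymes held regions in 2 of 15 genes and matrix metalloproteinases with their inhibitors in 2 of 12, all of them higher and 1 per gene. None of these counts exceeded the number given by length by a full gene. Where a gene holds no region, no change was listed there, and whether it was measured deeply enough to show one is unknown.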

How the data were processed

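CMS-IP and input libraries of Ogt iKO and control mESC gave the 2 lists analysed. The authors deposited positions only, on mm10 per the file names; Bismark and MACS2 are named in the submitters' processing notes, without versions or roles. How the regions were tested, the threshold, and how inputs, spike-ins and replicates entered are not given in the sources used here. The lists' name writes the knockout as OgtiTKO, read as the labels' Ogt iKO. The values in the deposited columns are coordinates in bp (no score). Starts, 0-based in the lists, are printed 1-based. No region is narrower than 200 bp.

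Gene spans came from the RefSeq gene table of GRCm38.p6: 402 of its 49997 genes, placed outside chromosomes 1 to 19, X and Y, were dropped. Exons and introns were not separated, since the table gives none. Strand came from the RefSeq promoter table (42 members). Distances from a gene start were measured from the end of the RefSeq span, by strand, and not from the transcript start. A region belonged to a gene when its midpoint lay in the span extended by 1 kb. The number given by length is the sum over members of the share in the same length decile, or in the 200 nonmember genes closest in length (log scale), which were also used for region counts, family numbers and per-gene comparisons. Members, gene lists and windows were chosen with earlier results of these data known. Described in full are members with 3 or more regions, both directions, one of the 5 widest regions or a region at a gene end; of the pathway lists, genes with 2 or more regions are named. Gene lookups on 300 genes were checked against a direct search and 0 differed. The tools were pandas 2.3.3, numpy 2.4.6 and scipy 1.17.1 under Python 3.11.15.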

Additional observations from a re-analysis of the deposited data

How the results depend on the processing

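Across 21 results, 96 values were recomputed, and 85 stayed within the interval of the reported value, or within 1.5 times a count. A reversal of direction was not labelled separately. The higher share of laminin regions, 50% as reported, was 37.5% by clusters of regions within 100 kb and 60% among the wider regions. Both lie inside its wide interval. Values outside the limits were these. The higher share of member regions was 88.2% when regions narrower than the median were dropped and 86.4% by base pairs, since higher regions are wider. By base pairs the share rose in other protein-coding genes too, with 4077785 bp in higher and 1088523 bp in lower regions. These shares are therefore not comparable with the 69.5% counted over regions in other genes. Without the narrower regions the higher share was 100% for integrins (8 regions), for the glycoprotein genes (4 regions) and for ADAMTS genes, where it rests on 1 region. Members with a lower region numbered 4 among those wider regions, and 19 when whole families were taken by symbol, which adds genes. With genes of 100 kb or more, 2 lower regions remained near a gene start. The share of higher member regions with a higher neighbour, over members of every length, was 15.1% within 5 kb. In other genes of 100 kb or more it was 5.79%. Within 20 kb the share in other long genes moved to 21.3%, while that of the members, 37.7%, stayed within its interval. The settings for gene starts, for neighbours, for the pathway lists and without Col25a1 were chosen after seeing the data. No paired analysis was possible because the lists hold no values per sample, and leaving out a replicate was not possible for the same reason. With unknown depth, genes without a region cannot be called unchanged.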
